A study of Mus musculus with 26 samples.

Results

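Transcript levels of 9 mouse genes that receive, carry, or remove retinoic acid were followed through 2 RNA sequencing experiments on CTCF and RNA. The genes were the retinoic acid receptors Rara, Rarb, and Rarg, the cellular retinoic acid binding proteins Crabp1 and Crabp2, the retinol transporter Stra6, the retinoic acid hydroxylases Cyp26a1 and Cyp26b1, and the retinal reductase Dhrs3. They were chosen by name and make up 9 of the 55291 gene symbols counted. All cells were mouse embryonic stem cells (ESCs) of the E14 line or neural progenitor cells (NPCs) made from them by 2 days of differentiation on laminin in N2B27 medium. In the CTCF rescue experiment, the endogenous CTCF carried an AID2 degron, and every group received 1 µM 5-Ph-IAA to degrade it and 1 µg/mL doxycycline to induce either full-length CTCF (ESC-WT and NPC-WT) or CTCF with a deletion in zinc finger 1 (ESC-ΔZF1 and NPC-ΔZF1) for 24 h, with 2 libraries in each of the 4 groups. In the RNA truncation experiment, untreated E14 cells (ESC E14 and NPC E14) were set beside lines in which an eGFP-SV40 polyadenylation cassette ends the Podxl RNA (ESC Podxl pA and NPC Podxl pA) or the Grb10 RNA (ESC Grb10 pA and NPC Grb10 pA), with 3 libraries in each of the 6 groups. The WT and ΔZF1 proteins were each expressed in a single line, and the rescue lines also carry an mCherry reporter at Mnx1, so that an effect of the protein and a difference between lines cannot be told apart. The labels do not say whether replicates were separate cultures, and p-values therefore measure only the spread between these libraries.

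Retinol is carried into cells by STRA6 and oxidized first to retinal and then to retinoic acid, while DHRS3 turns retinal back into retinol. Retinoic acid enters the nucleus with the help of CRABP2 and binds RAR proteins, which sit on DNA as pairs with RXR proteins and switch from repression to activation of target genes, whereas CRABP1 holds retinoic acid in the cytoplasm and CYP26 enzymes oxidize it for removal. Rarb, Cyp26a1, and Dhrs3 are well-known targets of the pathway they belong to, and in differentiating ESCs and in the embryo retinoic acid favours neural and endodermal fates and gives cells a more posterior identity. The labels name no added retinoic acid. The medium of ESCs and NPCs held B27, a supplement whose standard form contains the retinol ester retinyl acetate. Per the methods of the study, this medium also held fetal bovine serum. For ESCs it was supplemented with leukemia inhibitory factor, CHIR99021, and PD0325901, which are not named for the differentiation. The part of these supplements in the NPC over ESC changes was not tested.

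RAR-RXR pairs bind direct repeats of a 6-base motif, and the classical response element has 5 bases between the repeats. Promoter windows of RefSeq on GRCm38.p6, from 250 bases before to 50 after a start site, were searched on both strands for direct repeats in which each copy is the consensus AGGTCA, or the variant AGTTCA, or the variant GGGTCA, or the variant GGTTCA. Spacing 5 was found in 32 of 32851 windows (0.0974%), and 2 of them belong to the 8 genes of the set that have a window, those of Rarb and Cyp26a1. Repeats at spacing 1 and 2, in 0.2222% and 0.2679% of all windows, were in none of the 17 windows of the set. Both elements are shown with 6 flanking bases on each side, the repeats in capitals, because Rarb changed differently in the 2 experiments and Cyp26a1 showed the largest rise in E14.
Rarb: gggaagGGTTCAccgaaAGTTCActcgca
Cyp26a1: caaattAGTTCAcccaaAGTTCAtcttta
The Rarb element lies at chr14:16575513-16575529 on the strand of the gene, 53 to 37 bases before the RefSeq start and inside the first exon of a longer GENCODE transcript. The Cyp26a1 element lies at chr19:37697776-37697792 on the opposite strand, 32 to 16 bases before the RefSeq start. That start lies inside the gene as GENCODE annotates it, so that the element is nearer to the GENCODE start. The 240 bases that end just before the annotated Cyp26a1 gene, chr19:37697558-37697797 on the plus strand, are printed with the same repeats in capitals, here read from the other strand.
Cyp26a1 upstream: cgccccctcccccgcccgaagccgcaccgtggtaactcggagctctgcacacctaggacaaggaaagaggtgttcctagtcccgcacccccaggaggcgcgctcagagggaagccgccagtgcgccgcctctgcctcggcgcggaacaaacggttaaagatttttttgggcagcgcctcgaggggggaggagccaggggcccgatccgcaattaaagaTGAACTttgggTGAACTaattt
Neither element holds a copy of the consensus, and both consist of variants on the list searched for. These matches are descriptions of letters, no enrichment was tested, and binding was not measured here. Crabp2 has no promoter entry in the table used.

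Counts on genes ran from 6425179 to 28730435 per library in the rescue experiment and from 1907505 to 8845087 in the truncation experiment. Levels are given as CPM, the count scaled by the library size after TMM adjustment in each experiment separately, and levels of different genes are compared only as CPM per kilobase of exon. A gene is called up- or down-regulated by edgeR's quasi-likelihood F test where its Benjamini-Hochberg adjusted p over all genes tested is at most 0.05 and its log2 fold change reaches 0.5 or -0.5. SE is the standard error of that change. The truncated genes were low in their own lines: Podxl was at 20.8 to 24.3 CPM in NPC Podxl pA and 232 to 259 CPM in NPC E14, and Grb10 at 52.2 to 59.4 CPM in NPC Grb10 pA and 769 to 814 CPM in NPC E14. Reads on Ctcf were not split between the endogenous gene and the transgene, so that the counts do not check the deletion. Of the NPC markers, Sox1 was at 16.8 to 22.0 CPM in NPC-WT, 39.2 to 40.4 CPM in NPC-ΔZF1, and 74.1 to 83.8 CPM in NPC E14, all above the 3.88 to 12.1 CPM of ESC-WT, ESC-ΔZF1, and ESC E14. Hes5 and Fabp7, which mark later progenitors, had no count in NPC-WT and NPC Grb10 pA. All 10 pluripotency markers were down-regulated in NPCs of every line.

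**Figure D1:**
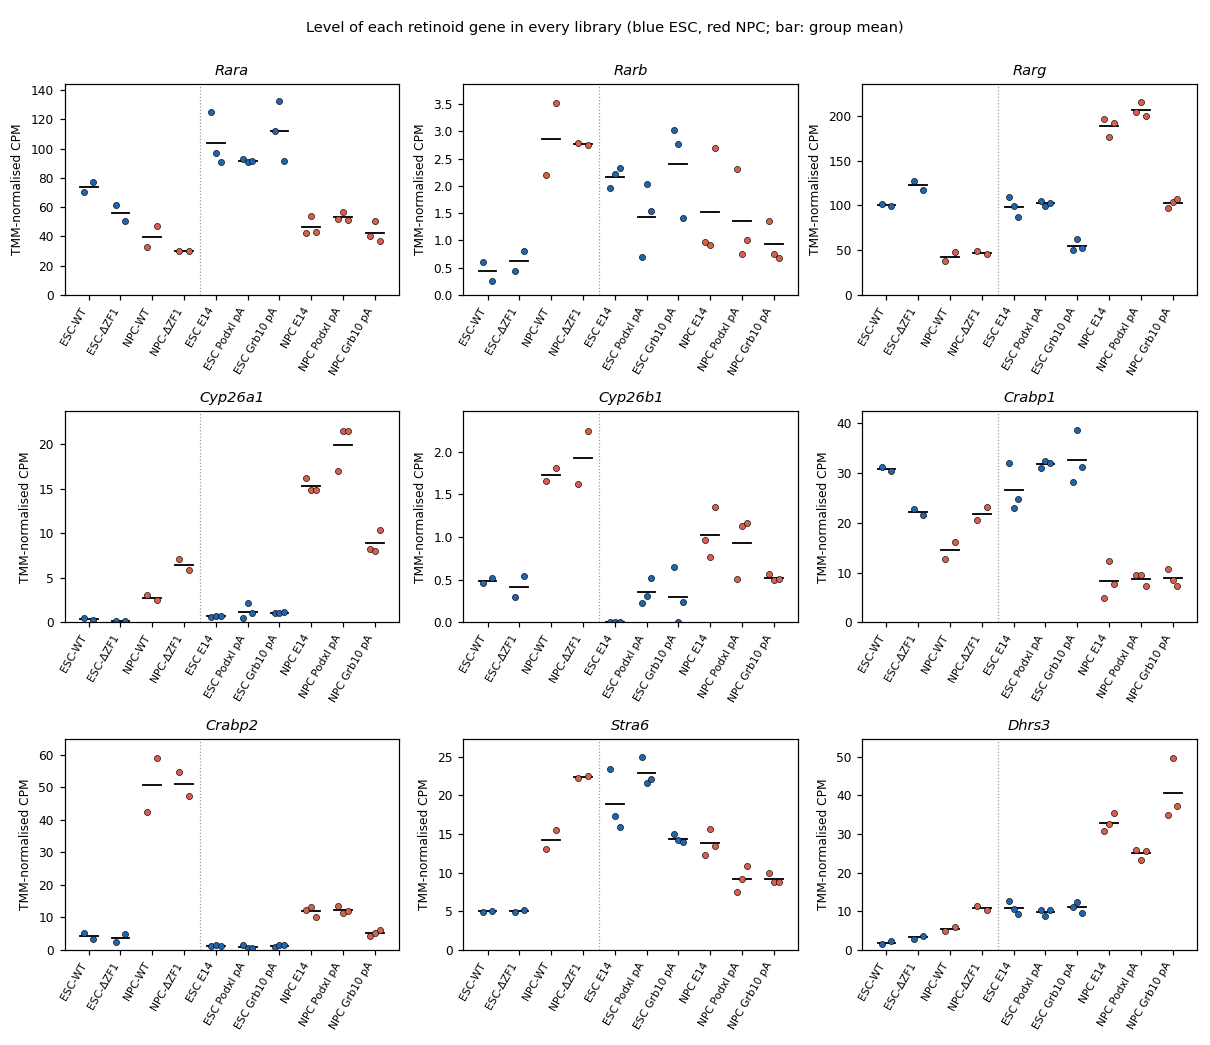
Level of each of the 9 genes in every library, in TMM-normalised CPM on a linear axis from 0, by group. Points are libraries, blue for ESCs and red for NPCs, bars are group means, and the dotted line separates the 8 rescue libraries from the 18 truncation libraries, which were normalised separately. Rarg was lower in NPCs than in ESCs on the left of the line and higher on the right.

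Rarg and Rara were the abundant receptors and Rarb was close to the limit of detection. In ESC E14, Rara was at 23.9 ± 4.14 and Rarg at 23.1 ± 2.64 CPM per kilobase (SD, n = 3), which overlap, and Rarb at 0.413 ± 0.036 CPM per kilobase (SD, n = 3). In ESC-WT the values were 16.9 ± 1.06 for Rara, 23.5 ± 0.483 for Rarg, and 0.0828 ± 0.0471 CPM per kilobase for Rarb (SD, n = 2). Crabp1, at 38.4 ± 0.635 CPM per kilobase in ESC-WT and 33.2 ± 5.99 in ESC E14, stood above the receptors in mean level in both. In ESC E14 its lowest library, at 28.61 CPM per kilobase, was next to the highest of Rara, at 28.57.

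**Figure D2:**
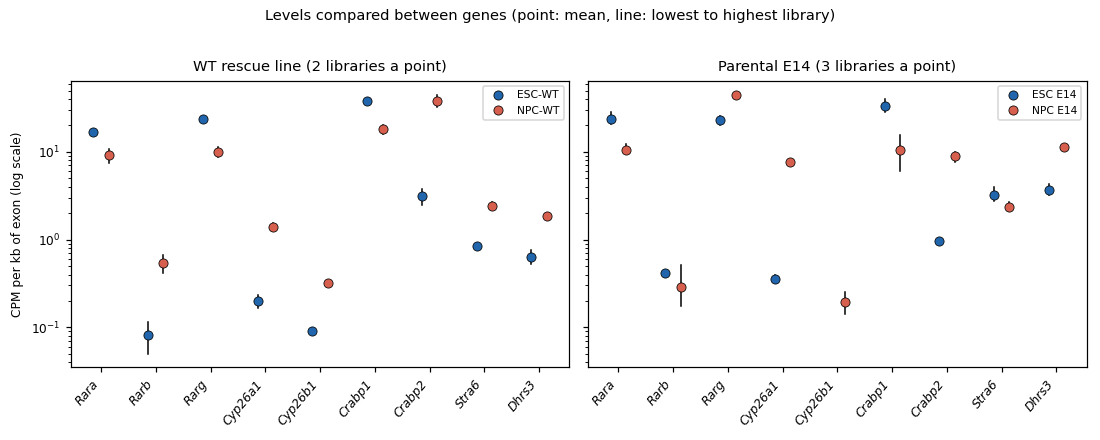
Levels of the 9 genes in CPM per kilobase of exon on a log axis, in the WT rescue line (left) and in parental E14 (right), blue for ESCs and red for NPCs. Points are means over 2 or 3 libraries and lines run from the lowest to the highest library. ESC E14 has no point for Cyp26b1, which had no count there.

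Differentiation of the WT rescue line changed all 9 genes. Relative to ESC-WT, 6 were up-regulated and 3 down-regulated in NPC-WT, where 41.9% of the 16641 genes tested were called (22% up and 19.9% down). Over the 9 genes the log2 fold change had a median of 1.5, against 0.01 over all genes tested. Cyp26a1, Cyp26b1, and Rarb passed edgeR's filter on low counts only through their NPC libraries, so that the filter itself favours a higher median. In bulk RNA, a change in the share of cells that express a gene and a change in its level per cell cannot be told apart. In the parental line, where 8 of the 9 genes could be tested, 4 were up-regulated and 2 down-regulated in NPC E14 relative to ESC E14, with 32.8% of the 13268 genes tested called. The median log2 fold change of the 8 was 0.24, against -0.01 over all genes tested. Cyp26a1 and Crabp2 passed the filter there only through NPC libraries, which again favours a higher median and calls up. Rara, Crabp1, Crabp2, Cyp26a1, and Dhrs3 were called in the same direction in both lines.

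Markers of other cell types rose with these changes. In the WT rescue line, 10 of 10 surface ectoderm markers were called up in NPCs, and their summed level went from 197 to 274 CPM in ESC-WT to 2978 to 4305 CPM in NPC-WT, while 8 of 12 extraembryonic endoderm markers were up and 1 down (239 to 321 CPM against 709 to 955 CPM). In E14, 10 of 10 extraembryonic endoderm markers that could be tested were up (118 to 134 CPM against 801 to 990 CPM), and 2 of 7 surface ectoderm markers were up and 1 down. In the ΔZF1 line all 12 extraembryonic endoderm markers were up (235 to 274 CPM against 4597 to 4623 CPM) and 9 of 10 surface ectoderm markers were. In Podxl pA and Grb10 pA, 10 of 10 extraembryonic endoderm markers were up in NPCs. The part of these cell types in the NPC over ESC changes was not tested.

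Rara (chromosome 11, 98927818 to 98974942, plus strand) encodes RARα. Its level was 70.5 and 77.0 CPM in the ESC-WT libraries and 32.5 and 47.4 CPM in NPC-WT, and 125, 96.7, and 90.9 CPM in ESC E14 against 42.1, 54.1, and 43.1 CPM in NPC E14. Every NPC library was below every ESC library of the same line. The log2 fold change was -0.90 (SE 0.18, adjusted p = 0.00212) in the WT rescue line and -1.14 (SE 0.14, adjusted p = 9.7e-08) in E14. It was also called down in the ΔZF1, Podxl pA, and Grb10 pA lines, at -0.88, -0.78, and -1.41, so that Rara fell in all 5 lines.

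Rarg (chromosome 15, 102234938 to 102257517, minus strand) encodes RARγ and moved in opposite directions in the 2 experiments. It was at 102 and 98.9 CPM in ESC-WT and fell to 37.5 and 47.9 CPM in NPC-WT. In E14 it rose from 109, 99.3, and 86.6 CPM in ESCs to 196, 176, and 192 CPM in NPCs. The ESC levels of ESC-WT and ESC E14 overlapped, and the NPC levels were apart. The log2 fold change was -1.24 (SE 0.13, adjusted p = 4.58e-05) in the WT rescue line and -1.37 in the ΔZF1 line, against 0.92 (SE 0.09, adjusted p = 1.4e-09) in E14, 1.02 in Podxl pA, and 0.91 in Grb10 pA.

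Rarb (chromosome 14, 16430839 to 16819156, minus strand) encodes RARβ. In the WT rescue line it had 4 counts in each ESC library and 52 and 41 counts in the NPC libraries, or 0.611 and 0.261 CPM against 2.20 and 3.52 CPM. The log2 fold change was 2.87 (SE 0.51, adjusted p = 0.00121), and 2.12 (SE 0.41, adjusted p = 0.00216) in the ΔZF1 line. In E14 it was at 1.96, 2.23, and 2.33 CPM in ESCs and at 0.971, 0.917, and 2.70 CPM in NPCs, which overlap, with a log2 fold change of -0.64 (SE 0.51, adjusted p = 0.314) from 3 to 13 counts per library. In the Grb10 pA line it was called down in NPCs at -1.23 (SE 0.49, adjusted p = 0.039), a call lost in DESeq2 (adjusted p = 0.115), without the filter on low counts, and without any of 4 libraries in turn (ESC Grb10 pA replicates 1 and 2 and NPC Grb10 pA replicates 2 and 3). Of the exon bases of Rarb, 34.06% are shared with exons of Top2b on the other strand and 4.31% with Gm48162, and reads were counted without strand, so that reads there cannot be assigned to either gene. Top2b itself was at 97.2 ± 5.1 CPM in ESC-WT and 118 ± 37 CPM in NPC-WT (SD, n = 2), with a log2 fold change of 0.28 (SE 0.18, adjusted p = 0.217), and it was called up in NPC E14 at 0.82 (SE 0.09).

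The difference between the experiments was then tested in a single fit of all 26 libraries, a comparison chosen after these values were seen. It asks whether the NPC over ESC change of the WT rescue line differs from that of E14, and 35.2% of 14742 genes were called. The change was larger in the WT rescue line for Rarb by 3.48 on the log2 scale (SE 0.76, adjusted p = 0.000544) and for Stra6 by 1.92 (SE 0.25, adjusted p = 5.11e-07), and the difference for Rarg was -2.18 (SE 0.15, adjusted p = 4.21e-12). Rara, at 0.24 (95% interval -0.23 to 0.70), Cyp26a1, at -1.53 (-2.94 to -0.12, adjusted p = 0.0993), Crabp1, Crabp2, and Dhrs3 were not called. Crabp1 was called, however, without NPC E14 replicate 2 (0.98, adjusted p = 0.0167). Cyp26a1 held 3 and 5 counts in the ESC-WT libraries and 2 to 4 in those of ESC E14. Surface ectoderm markers moved with this contrast: their summed level was 2978 to 4305 CPM in NPC-WT and 198 to 243 CPM in NPC E14, and 6 of the 8 tested were called higher and none lower in it. Of the extraembryonic endoderm markers, 8 of 12 were called lower in it and none higher. The part of these cells in the retinoid differences was not tested, and line, treatment, and experiment cannot be told apart in it.

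Crabp2 showed the largest rise of the binding proteins, and Crabp1 fell. Crabp2 (chromosome 3, 87948666 to 87953376, plus strand) was at 5.04 and 3.26 CPM in ESC-WT and at 42.4 and 58.9 CPM in NPC-WT, a 12.9-fold rise (log2 fold change 3.69, SE 0.29, adjusted p = 6.66e-06). In E14 it rose from 1.31, 1.37, and 1.16 CPM to 12.3, 13.1, and 10.1 CPM, a 9.06-fold rise (log2 fold change 3.18, SE 0.30, adjusted p = 1.19e-09). In the truncation experiment Crabp2 passed the filter on low counts only through NPC libraries. Its place among the genes tested there already required a higher level in NPCs. NPC levels were 42.4 CPM or more in every rescue library and 13.6 CPM or less in every truncation library. Crabp1 (chromosome 9, 54764748 to 54773110, plus strand) went the other way, from 31.2 and 30.5 CPM in ESC-WT to 12.8 and 16.2 CPM in NPC-WT and from 32.1, 22.9, and 24.9 CPM in ESC E14 to 4.85, 12.4, and 7.75 CPM in NPC E14. Its log2 fold changes were -1.10 (SE 0.15, adjusted p = 0.000278) and -1.55 (SE 0.22, adjusted p = 1.57e-06). As a result the order of both genes turned over in the WT rescue line, where per kilobase Crabp1 was at 38.4 and Crabp2 at 3.14 CPM in ESC-WT, and Crabp1 at 18.1 and Crabp2 at 38.3 CPM in NPC-WT. In NPC E14 both were close, at 10.4 ± 4.73 and 8.96 ± 1.18 CPM per kilobase (SD, n = 3), with overlapping libraries.

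Stra6 (chromosome 9, 58063788 to 58153996, plus strand), the cell surface retinol transporter, rose in both rescue lines and was called down in 2 of the 3 truncation lines. It was at 4.89 and 5.09 CPM in ESC-WT and 13.0 and 15.5 CPM in NPC-WT (log2 fold change 1.496, SE 0.17, adjusted p = 8.07e-05). In E14 it stood at 23.3, 17.3, and 15.9 CPM in ESCs and 12.3, 15.6, and 13.5 CPM in NPCs, and the log2 fold change of -0.44 (SE 0.17, adjusted p = 0.0332) was below the cutoff on size, which it passed without ESC E14 replicate 2 (-0.52), ESC E14 replicate 3 (-0.50), or NPC E14 replicate 2 (-0.55). It was called down in the Podxl pA line at -1.29 and in the Grb10 pA line at -0.64. The 2 experiments differed most in ESCs, where the ESC-WT libraries were at 5.09 CPM or less and every ESC library of the truncation experiment 13.98 CPM or more.

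All 3 enzyme genes were higher in NPCs wherever they could be tested. For Cyp26a1 in both experiments and Cyp26b1 in the rescue experiment, the filter on low counts already required this, and for Dhrs3 it did not. Cyp26a1 (chromosome 19, 37697798 to 37701536, plus strand) had 3 and 5 counts in the ESC-WT libraries and 73 and 29 in NPC-WT, or 0.459 and 0.326 CPM against 3.09 and 2.49 CPM. Its rise was 7.60-fold (log2 fold change 2.93, SE 0.40, adjusted p = 0.000217). In E14 it went from 0.654, 0.685, and 0.777 CPM to 16.2, 14.8, and 14.8 CPM, a 21.2-fold rise (log2 fold change 4.41, SE 0.33, adjusted p = 1.25e-11). In the ΔZF1 line the rise was 35.4-fold (log2 fold change 5.15, SE 0.37), from 2 and 3 counts in the ESC-ΔZF1 libraries. The ESC E14 libraries held 2 to 4 counts, so that the size of these rises is uncertain. Dhrs3 (chromosome 4, 144892827 to 144928209, plus strand) rose from 1.53 and 2.22 CPM in ESC-WT to 4.96 and 5.93 CPM in NPC-WT and from 12.6, 10.6, and 9.32 CPM in ESC E14 to 30.7, 32.5, and 35.4 CPM in NPC E14. The log2 fold changes were 1.44 (SE 0.26, adjusted p = 0.0012) and 1.57 (SE 0.16, adjusted p = 7.77e-09), so that the lower Dhrs3 level of the rescue line in both cell types went with a similar fold. Cyp26b1 (chromosome 6, 84571414 to 84593908, minus strand) was at 0.459 and 0.522 CPM in ESC-WT and 1.65 and 1.80 CPM in NPC-WT. Its log2 fold change of 1.76 (SE 0.45, adjusted p = 0.00938) was lost without ESC-WT replicate 2 (1.89, adjusted p = 0.0834). It did not pass the filter on low counts in the truncation experiment, where it had no count in ESC E14 and 12 counts over the NPC E14 libraries. Taking 3 counts over the group as the limit that a count of 0 allows, it was at least 4.13-fold higher in NPC E14, a bound that covers counting error only.

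In the rescue experiment Cyp26a1 and Cyp26b1 passed the filter only through NPC libraries, and in the truncation experiment Cyp26a1 and Crabp2 did. Rarb reached the cutoff of the filter in 1 ESC library and 4 NPC libraries of the rescue experiment, and the ESC library alone would not have sufficed. The place of these genes among those tested in these experiments thus already required a higher level in NPCs. In the other lines most of the genes tested were called as well, although Rarg and Stra6 moved in opposite directions in the 2 experiments. In the ΔZF1 line, 6 genes were up-regulated and 2 down-regulated in NPCs, with 37.3% of all genes called, and Crabp1 was at 22.8 and 21.5 CPM in ESCs and 20.5 and 23.2 CPM in NPCs. In Podxl pA, 4 were up and 3 down, with 31.8% of all genes called. In Grb10 pA, 4 were up and 4 down, with 34.6% called.

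**Figure D3:**
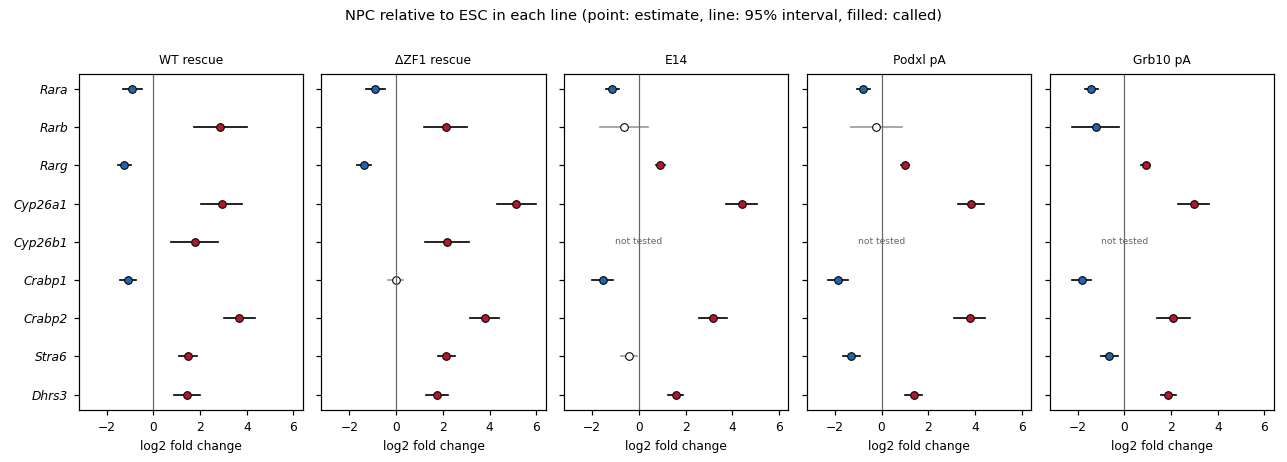
Log2 fold change of NPCs over ESCs for the 9 genes in each of the 5 lines. Points are edgeR estimates, lines 95% intervals, and filled points are called up (red) or down (blue), while open points are not called. Cyp26a1, Crabp2, and Dhrs3 lie to the right and Rara to the left of 0 in all 5 panels, and Rarg, Rarb, and Stra6 differ in side between the rescue lines and the others.

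The next comparison asked what the deletion in zinc finger 1 changed. In ESCs, none of the 9 genes was called between ESC-ΔZF1 and ESC-WT by edgeR or by DESeq2, and 3.61% of all genes were called. At the looser cutoff of an unadjusted p under 0.05, 4 of the 9 passed. The share of all genes that pass this looser cutoff was not taken. The largest of those 4 effects was that of Dhrs3, at 1.53 and 2.22 CPM in ESC-WT and 2.94 and 3.51 CPM in ESC-ΔZF1 (log2 fold change 0.71, 95% interval 0.09 to 1.32, adjusted p = 0.202). Crabp1 was at 31.2 and 30.5 CPM in ESC-WT and 22.8 and 21.5 CPM in ESC-ΔZF1 (log2 fold change -0.47, 95% interval -0.81 to -0.14, adjusted p = 0.119). Stra6 had a log2 fold change of 0.00 with a 95% interval of -0.42 to 0.43.

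In NPCs, 4 of the 9 were up-regulated in NPC-ΔZF1 and none was down-regulated, in a comparison where 17.6% of all genes were called (7.19% up and 10.5% down). These shares include the genes of chromosome 11, which had a median log2 fold change of -0.57, and of the 9 only Rara lies there. The 4 were the hydroxylase Cyp26a1, the reductase Dhrs3, the transporter Stra6, and the cytoplasmic binding protein Crabp1. Cyp26a1 was at 3.09 and 2.49 CPM in NPC-WT and 7.08 and 5.85 CPM in NPC-ΔZF1, a 2.27-fold rise (log2 fold change 1.18, SE 0.23, adjusted p = 0.00618). Dhrs3 was at 4.96 and 5.93 CPM and at 11.4 and 10.2 CPM, a 2.01-fold rise (log2 fold change 1.01, SE 0.20, adjusted p = 0.00646). For Stra6 the libraries were at 13.0 and 15.5 CPM and at 22.2 and 22.5 CPM, a 1.58-fold rise (log2 fold change 0.66, SE 0.15, adjusted p = 0.0113). Crabp1 went from 12.8 and 16.2 CPM to 20.5 and 23.2 CPM, a 1.52-fold rise (log2 fold change 0.60, SE 0.15, adjusted p = 0.0197). For each of the 4 genes both ΔZF1 libraries lay above both WT libraries, and the share of all genes without overlap was not taken.

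The receptors, Crabp2, and Cyp26b1 were not called between NPC-ΔZF1 and NPC-WT. Rarb, at 2.20 and 3.52 CPM in NPC-WT and 2.78 and 2.76 CPM in NPC-ΔZF1, overlapped between the groups (log2 fold change 0.00, 95% interval -0.68 to 0.69), although Top2b on the other strand was called up at 0.58 (SE 0.17). Crabp2 was at 42.4 and 58.9 CPM and at 54.6 and 47.3 CPM (95% interval of the log2 fold change -0.48 to 0.51), and Rarg had an interval of -0.13 to 0.45. Rara was lower, at 30.3 CPM in both NPC-ΔZF1 libraries, with a log2 fold change of -0.39 (SE 0.17, adjusted p = 0.139). The genes of chromosome 11, where Rara lies, had a median log2 fold change of -0.57 in this comparison and -0.46 in ESCs, and after these medians were added to the model's offsets Rara had log2 fold changes of 0.18 in NPCs and 0.05 in ESCs, both of the other sign and not called. Without NPC-WT replicate 1 Rara was called down at -0.65 and Crabp1 was no longer called.

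These 4 calls depend on single libraries. With only the NPC libraries in the model, Cyp26a1 and Dhrs3 were still called, while Crabp1 (0.59, adjusted p = 0.114) and Stra6 (0.65, adjusted p = 0.0732) were not. Without NPC-ΔZF1 replicate 1 none of the 9 was called, with adjusted p from 0.0838 to 0.104 for the 4, and without NPC-ΔZF1 replicate 2 only Cyp26a1 and Dhrs3 were, while in both of these fits the log2 fold changes of the 4 genes stayed at 0.51 or more. Extraembryonic endoderm markers moved beside the 4 genes: 12 of 12 were up-regulated in NPC-ΔZF1, and their summed level was 4597 to 4623 CPM against 709 to 955 CPM in NPC-WT. The summed level of the surface ectoderm markers was 1221 to 1281 CPM against 2978 to 4305 CPM, with 6 of 10 called down and 1 up. The part of these cell types in the retinoid changes was not tested.

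Whether the effect of ΔZF1 differed between NPCs and ESCs was tested as the difference of both differences, which called 2.7% of all genes. Of the 9 genes, Crabp1 was called, at 1.08 (SE 0.21, adjusted p = 0.0292), being lower in ESC-ΔZF1 than in ESC-WT and higher in NPC-ΔZF1 than in NPC-WT in every library. Cyp26a1 had a difference of 2.22 (95% interval 0.63 to 3.81, adjusted p = 0.143) and Stra6 of 0.66 (0.12 to 1.19, adjusted p = 0.186). The value of Cyp26a1 rests on 3 and 5 counts in ESC-WT and 2 and 3 counts in ESC-ΔZF1. The call of Crabp1 was lost on leaving out either ESC-WT library, either ESC-ΔZF1 library, or either NPC-ΔZF1 library, with values from 0.99 to 1.15 and adjusted p from 0.118 to 0.182.

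None of the 8 genes that could be tested was called after truncation of the Podxl RNA. In ESCs 0.339% of all genes were called, and no retinoid gene had an unadjusted p under 0.05. In NPCs 0.55% of all genes were called, and DESeq2 called no retinoid gene in either cell type. At the looser cutoff of an unadjusted p under 0.05, for which the share of all genes was not taken, 3 retinoid genes passed in NPCs. The 3 were Stra6, at 7.45, 9.22, and 10.8 CPM in NPC Podxl pA against 12.3, 15.6, and 13.5 CPM in NPC E14 (log2 fold change -0.59, adjusted p = 0.169), Dhrs3, at 26, 23.3, and 25.7 CPM against 30.7, 32.5, and 35.4 CPM (-0.40, adjusted p = 0.271), and Cyp26a1, at 17.0, 21.5, and 21.5 CPM against 16.2, 14.8, and 14.8 CPM (0.40, adjusted p = 0.418). The libraries of the groups did not overlap for these 3 genes and for Rarg, and the share of all genes without overlap was not taken. Extraembryonic endoderm markers were higher in NPC Podxl pA, with 6 of 10 called up and a summed level of 1406 to 1546 CPM against 801 to 990 CPM in NPC E14. None of the 8 effects was called for a difference between NPCs and ESCs by edgeR or DESeq2, and 0.098% of all genes were called. The looser cutoff of an unadjusted p under 0.05, for which the share of all genes was not taken, was passed by 1.

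Truncation of the Grb10 RNA went with lower Rarg in both cell types. Rarg was at 109, 99.3, and 86.6 CPM in ESC E14 and 50.4, 62.1, and 52.1 CPM in ESC Grb10 pA, a log2 fold change of -0.86 (SE 0.10, adjusted p = 4.96e-07). It was the only one of the 8 genes tested that was called in ESCs, where 9.09% of all genes were. In NPCs it was at 196, 176, and 192 CPM in NPC E14 and 97.2, 104, and 107 CPM in NPC Grb10 pA, a log2 fold change of -0.87 (SE 0.08, adjusted p = 2.67e-08). The difference between the effects in NPCs and ESCs was -0.01 (95% interval -0.28 to 0.26). Chromosome 8 genes sat lower in the Grb10 pA line than in E14, with log2 medians of -0.49 (ESCs) and -0.48 (NPCs). None of the 9 genes lies on it, and chromosome 15, which holds Rarg, had medians of 0.05 and 0.06. The part of this shift in the lower Rarg and in the shares of all genes called was not tested. An effect of the truncation and other differences between the Grb10 pA line and E14 cannot be told apart. Extraembryonic endoderm markers summed to 170 to 192 CPM in ESC Grb10 pA and 118 to 134 CPM in ESC E14, with 2 of 10 called up, and their part in the lower Rarg was not tested.

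In NPC Grb10 pA, 4 of the 8 were down-regulated relative to NPC E14 and none was up-regulated, with 16.5% of all genes called (8.64% down). Besides Rarg these were Crabp2, Cyp26a1, and Stra6. Crabp2 was at 12.3, 13.1, and 10.1 CPM in NPC E14 and 4.39, 5.23, and 6.16 CPM in NPC Grb10 pA, a log2 fold change of -1.21 (SE 0.21, adjusted p = 0.000122). Cyp26a1 was at 16.2, 14.8, and 14.8 CPM and at 8.21, 7.98, and 10.4 CPM, a log2 fold change of -0.78 (SE 0.19, adjusted p = 0.00323). For Stra6 the libraries were at 12.3, 15.6, and 13.5 CPM and at 9.90, 8.72, and 8.72 CPM, a log2 fold change of -0.61 (SE 0.18, adjusted p = 0.0105) that was not called without NPC E14 replicate 2 (-0.48, adjusted p = 0.117). In each of these 4 genes every truncated library lay below every E14 library, and the share of all genes without overlap was not taken. Dhrs3, at 35.0, 49.6, and 37.1 CPM in NPC Grb10 pA, overlapped NPC E14 (log2 fold change 0.28, 95% interval 0.01 to 0.56, adjusted p = 0.116), and Crabp1 had an interval of -0.48 to 0.48.

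None of the 8 genes was called for a difference between the Grb10 pA effects in NPCs and ESCs by edgeR or DESeq2, and 5.9% of all genes were called. The looser cutoff of an unadjusted p under 0.05, for which the share of all genes was not taken, was passed by 1. For Cyp26a1 the difference was -1.43 (95% interval -2.67 to -0.19, adjusted p = 0.157), from 2 to 4 counts per library in ESC E14 and 3 to 5 in ESC Grb10 pA. Neural progenitor markers moved beside the retinoid genes in NPC Grb10 pA, where 3 of 7 were called down and 1 up. Sox1 was at 22.1 to 30.4 CPM there and 74.1 to 83.8 CPM in NPC E14, while the summed level of the list overlapped (221 to 239 CPM against 237 to 255 CPM). Extraembryonic endoderm markers summed to 626 to 774 CPM against 801 to 990 CPM, with 4 of 10 called down. Their part in the retinoid changes was not tested. The comparisons with E14 share the E14 libraries, and the comparisons within the rescue experiment share NPC-WT or ESC-WT.

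**Figure D4:**
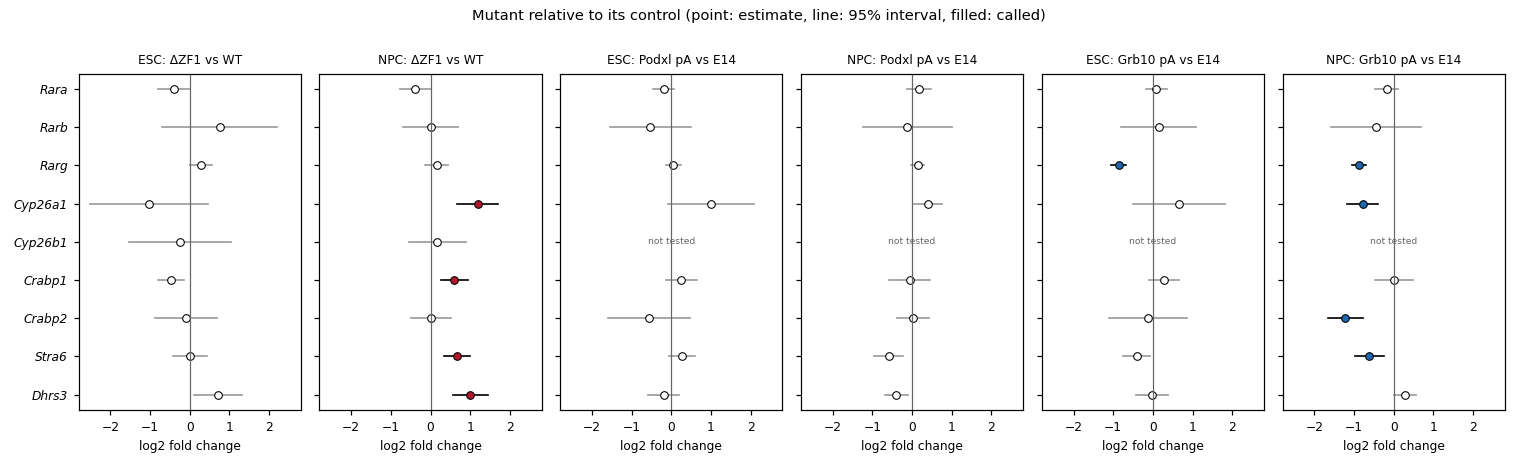
Log2 fold change of the 9 genes in ΔZF1 over WT, Podxl pA over E14, and Grb10 pA over E14, in ESCs and NPCs. Points are edgeR estimates, lines 95% intervals, and filled points are called up (red) or down (blue), while open points are not called. The called genes are 4 to the right in NPC-ΔZF1, 1 to the left in ESC Grb10 pA, and 4 to the left in NPC Grb10 pA.

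The other genes of the pathway were counted from a list of 36, of which 31 could be tested in the rescue experiment and 29 in the truncation experiment. Between NPC-WT and ESC-WT, 8 of them were up and 5 down, where 41.9% of all genes were called, and between NPC E14 and ESC E14, 10 were up and 6 down, where 32.8% were. Of the RXR partners none of 3 was called in the WT rescue line, and Rxrg rose from 0.0727 to 3.87 CPM in mean level in E14 (log2 fold change 5.25, SE 0.81). Of the synthesis genes, Rdh10, which makes retinal from retinol, rose from 3.75 to 13.6 CPM in mean level in the WT rescue line (log2 fold change 1.85, SE 0.19). The largest changes were those of target genes. Hoxb1, a Hox gene of the hindbrain, rose by 4.02 on the log2 scale in the WT rescue line and by 6.68 in E14, and the Hox cofactor Meis1 by 2.8 and 3.41. In ESC E14 the mean of Hoxb1, like that of Rxrg, was 0.0727 CPM, where 3 counts are 0.514 to 1.16 CPM. The size of both rises in E14 is therefore uncertain. Cdx1, a regulator of posterior identity that Wnt signalling also induces, fell by 2.37 and 7.15, from 264 to 1.90 CPM in mean level in E14.

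In NPC-ΔZF1, 5 of the 31 other genes were up and 4 down relative to NPC-WT, where 7.19% of all genes were up and 10.5% down. All 5 were target genes, of which 9 were tested and 2 were down. The 2 down are not named, because only the 5 largest absolute changes are, and these were all up. Among them, Foxa1, which encodes a pioneer factor of endoderm, had a log2 fold change of 1.53 (SE 0.25), Cdx1 of 1.46 (SE 0.22), Hoxb1 of 1.44 (SE 0.16), and Meis2, a Hox cofactor, of 1.09 (SE 0.21). In ESC-ΔZF1, where 3.61% of all genes were called, 3 were up (Meis2 at 1.42, Cdx1 at 1.28, and Tgm2 at 1.14) and 1 was down (Fabp5, a carrier of fatty acids and retinoic acid, at -0.90). For the difference between the ΔZF1 effects in NPCs and ESCs, 2 of the 31 were up and 1 down, where 2.7% of all genes were called. Tgm2 was down in it at -1.85 (SE 0.28), and Fabp5 was up at 1.16 (SE 0.25).

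In NPC Grb10 pA, 4 of 9 target genes were down and none was up relative to NPC E14, where 8.64% of all genes were down. Foxa1 fell by 1.46 (SE 0.51), Hoxb1 by 0.96 (SE 0.24), and Meis1 by 0.67 (SE 0.21) on the log2 scale, and Rxrg by 2.28 (SE 0.48). The libraries of Meis1 overlapped between the groups. In NPC Grb10 pA the mean level was 0.675 CPM for Foxa1 and 0.706 CPM for Rxrg, where 3 counts are 0.338 to 0.748 CPM. The size of these 2 falls is therefore uncertain. The retinol dehydrogenase gene Rdh14 was up at 0.76 (SE 0.27). In ESC Grb10 pA, where 9.09% of all genes were called, 3 of 29 were up and none down: Aldh1a3, which makes retinoic acid, from 0.818 to 5.20 CPM in mean level (log2 fold change 2.99, SE 0.57), Tgm2, from 13.8 to 40.0 CPM (1.53, SE 0.16), and Stra8 (0.64, SE 0.09).

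The genes most like each member were found by the Pearson correlation of log2 CPM with 13225 other genes over the 18 truncation libraries, which share groups of 3, so that r mostly reflects the difference between ESCs and NPCs. Cyp26a1 was most like Pdgfra (r = 0.984), Tfec (0.982), and Dnmt3b (0.981), and over the 8 rescue libraries the same pairs had r = 0.945, 0.845, and 0.915. Pdgfra is a receptor of primitive endoderm and mesoderm. Crabp2 was most like Bcl2l11 (0.978), Mdm2 (0.976), and Fam120b (0.976), with 0.987, 0.938, and 0.961 in the rescue libraries. Rarg was most like Naf1 (0.983), Spry4 (0.979), and Fgfr1 (0.973), and in the rescue libraries r was -0.01 with Naf1, 0.754 with Spry4, and -0.87 with Fgfr1.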

How the data were processed

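RNA from 26 libraries of 10 groups was analysed, grouped by the labels of the samples. Libraries were made from total RNA after depletion of rRNA. Per the labels and the methods of the study, the authors aligned reads to mm10 with STAR, counted them on genes with featureCounts without strand, and deposited whole-number counts without normalization; the annotation used in counting is not given in the sources used here. A further 3 columns match no sample and were not used. Each table was fitted here with edgeR 4.0.16 in R 4.3.3 (TMM, edgeR's filter on low counts, 1 mean per group, quasi-likelihood F test), which left 16641 and 13268 genes, and p-values were adjusted over all of them. The authors used DESeq2, and DESeq2 1.42.0 was run as an alternative. Gene positions and exon lengths are those of GENCODE M21 on GRCm38, in which 96.18% of symbols matched 1 gene. The 9 genes, the other pathway list, and the marker lists were chosen with earlier results of these data known. Pathway genes are named by the largest absolute log2 fold change among those called, at most 5 per comparison, and genes alike by the 3 highest correlations. 1 gene of the pathway list is not reported here by name. No log2 fold change is given against a group without any count. Same-numbered replicates did not deviate together (correlations of -0.09 to 0.132), so no block was used. On counts simulated from these libraries, the share of false calls was above the adjusted p cutoff for NPC-ΔZF1 against NPC-WT and below it for ESC Grb10 pA against ESC E14. The alternatives are given in the closing section.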

Additional observations from a re-analysis of the deposited data

Results flagged for a closer look

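The effect of ΔZF1 on Crabp1 differed between NPCs and ESCs by 1.08 on the log2 scale (SE 0.21, adjusted p = 0.0292 by edgeR). Both ESC-ΔZF1 libraries, at 22.8 and 21.5 CPM, were below both ESC-WT libraries, at 31.2 and 30.5 CPM, and both NPC-ΔZF1 libraries, at 20.5 and 23.2 CPM, were above both NPC-WT libraries, at 12.8 and 16.2 CPM. The call was lost without any 1 of 6 of the 8 libraries (both of ESC-WT, ESC-ΔZF1, and NPC-ΔZF1), with adjusted p from 0.118 to 0.182.

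The NPC over ESC change differed between the WT rescue line and E14 for 3 genes, in a comparison added after the values were seen. The difference was 3.48 for Rarb (SE 0.76, adjusted p = 0.000544), -2.18 for Rarg (SE 0.15, adjusted p = 4.21e-12), and 1.92 for Stra6 (SE 0.25, adjusted p = 5.11e-07), on the log2 scale by edgeR. Each of the 3 was called with every one of the 10 libraries of these groups left out in turn. With a minimum of 10 counts per library, Rarb was not tested and the other 2 were called. Treatment, line, and experiment differ together between these groups and cannot be told apart.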

How the results depend on the processing

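No called gene changed sign under DESeq2, RLE factors, tests without the filter, a minimum of 10 counts per library, models of only the groups compared, a replicate block, chromosome 11 medians in the offsets, or leaving out single libraries. The minimum of 10 counts left 5 genes called in NPC-ΔZF1 against ESC-ΔZF1, 5 in NPC Grb10 pA against ESC Grb10 pA, and 2 in NPC Grb10 pA against NPC E14, because Rarb, Cyp26a1, Cyp26b1, and in the truncation experiment Crabp2 were then not tested. With only the groups compared, 2 genes were called in NPC-ΔZF1 against NPC-WT. Leaving out each library in turn gave 0 to 4 genes in NPC-ΔZF1 against NPC-WT and 0 to 2 for the difference between the ΔZF1 effects in NPCs and ESCs, where Cyp26a1 (2.40, adjusted p = 0.0245) was called without NPC-WT replicate 1 and Stra6 (0.75, adjusted p = 0.0224) without NPC-WT replicate 2. A library left alone in its group was assumed to vary like the others.

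Replicate numbers share no stated litter, batch, or day. The replicate block left the calls of NPC-ΔZF1 against NPC-WT at 4 genes and those of NPC Grb10 pA against NPC E14 at 4 genes, and changed no call among the 9 genes in any other comparison.

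Over all genes, 601 were called in ESC-ΔZF1 against ESC-WT, and 1601 with only the ESC libraries, 1088 without the filter, 245 with chromosome 11 medians in the offsets, and 8 to 21 with 1 library left out. In NPC-ΔZF1 against NPC-WT, 2936 were called, and 1222 with only the NPC libraries and 943 to 5870 with 1 library left out, the highest without NPC-WT replicate 1. For the difference between both, 449 were called, and 696 in DESeq2, 1139 without the filter, and 54 to 4673 with 1 library left out. Depth limits Rarb, Cyp26a1, and Cyp26b1 in ESCs, where most libraries held fewer than 15 counts of each.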
